A study of Mus musculus with 10 samples.

Results

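Lgr5, Ascl2, Smoc2, Lrig1, Sox9, Axin2, Rnf43, Znrf3, Nkd1 and Notum are genes read as markers of intestinal stem cells and of Wnt signalling. They were taken by symbol, but earlier results of these data were known when they and all gene lists below were chosen. They are 10 of the 19456 genes listed in at least 1 library, and each is listed in all 10 libraries. The libraries were poly-A RNA from intestinal tissue of C57BL/6 mice, either transgenic mice that overexpress ITGB6 (TG) or wild type (WT). ITGB6 encodes the beta 6 subunit of the epithelial integrin alpha v beta 6. The groups were TG given 2.5% dextran sulfate sodium (DSS) by mouth (2 libraries), WT given the same (2), untreated TG (3) and untreated WT (3). DSS is a polymer that injures the gut lining, and the submitters describe it as a model of intestinal fibrosis. The labels give no promoter for the transgene, no gut segment, no age and no collection time, and do not say whether each library is a different animal. The tests therefore gauge the scatter among these libraries, which may be technical.

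The intestinal epithelium is renewed from stem cells at the base of its crypts. Wnt ligands, made largely by neighbouring mesenchyme in the colon, bind Frizzled and LRP receptors there, stabilise beta-catenin, and so switch on TCF-dependent target genes. R-spondins bind LGR receptors and protect the Wnt receptors from the ubiquitin ligases RNF43 and ZNRF3, which are Wnt targets themselves and close a negative feedback loop. AXIN2, NKD1 and NOTUM are feedback inhibitors as well, whereas LGR5, ASCL2 and SMOC2 mark crypt base stem cells.

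In the RefSeq annotation of GRCm38.p6 the crypt base genes Lgr5 (gene ID 14160), Ascl2 (17173) and Smoc2 (64074) lie at chr10:115450314-115587780, chr7:142966822-142969264 and chr17:14279490-14404790. Lrig1 (16206) lies at chr6:94604529-94700298 and Sox9 (20682) at chr11:112782210-112787757. Of the feedback genes, Axin2 (12006), Rnf43 (207742), Znrf3 (407821) and Notum (77583) are all on chromosome 11, at chr11:108917828-108950783, chr11:87663087-87735539, chr11:5276329-5444847 and chr11:120653788-120661193, and Nkd1 (93960) lies at chr8:88521342-88594887. By the exons of GENCODE's mouse annotation of the same build, Lrig1 shares 144 exonic bases with Slc25a26, and Notum shares 708 with Notumos and 210 with Myadml2os, all on the opposite strand, so their counts may include reads of these partners.

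Libraries held 15393859 to 18284704 deposited expected counts, and levels below are CPM, counts scaled to library size and by TMM factors, unless FPKM is named. Human ITGB6, the transgene, averaged 2327 ± 178 CPM in TG DSS libraries and 0.922 ± 0.301 CPM in WT DSS libraries (SD, n = 2 each), and 3800 ± 148 CPM in untreated TG and 0.12 ± 0.00294 CPM in untreated WT libraries (SD, n = 3 each). The summed epithelial markers (6 genes) stood at 13314 to 18063 CPM in DSS and 14837 to 19009 CPM in untreated libraries. The 6 smooth muscle markers summed to 6.54 to 9.78 CPM in DSS and 7.69 to 9.28 CPM in untreated libraries. The 5 endothelial markers summed to 2.54 to 3.28 CPM in DSS and 6.38 to 9.93 CPM in untreated libraries, without overlap. The 13 leukocyte markers summed to 54.7 to 86.7 CPM in DSS and 42.8 to 246 CPM in untreated libraries. The part of cell content in the DSS differences below was not tested. The DSS and untreated groups differ in sex as well. Xist, expressed from the inactive X chromosome, read 307 to 739 CPM in the DSS and 0 to 0.417 CPM in the untreated libraries, and the Y-linked Kdm5d read 0 CPM in the DSS and 26.6 to 44.2 CPM in the untreated libraries. DSS, sex and any difference in collection time therefore cannot be told apart in any DSS comparison below. Library TG untreated 1 stood apart, with summed leukocyte markers of 42.8 CPM against 122 and 195 CPM in the other untreated TG libraries. The WT DSS libraries differed from each other in several of the 10 genes, as described below.

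Promoter sequences of GRCm38.p6 from RefSeq were at hand for 5 of the 10 genes, Ascl2, Axin2, Lrig1, Nkd1 and Rnf43. The 250 bases before an annotated start are shown for Axin2 and Ascl2, since Axin2 fell with DSS in both genotypes in every alternative fit and Ascl2 had the largest fitted fall in WT among the 9 tested genes. The Axin2 window is chr11:108920099-108920348 on the plus strand, inside the gene's span and before an internal start, and the Ascl2 window is chr7:142969265-142969514 on the minus strand. Neither window overlaps an annotated exon.
Axin2: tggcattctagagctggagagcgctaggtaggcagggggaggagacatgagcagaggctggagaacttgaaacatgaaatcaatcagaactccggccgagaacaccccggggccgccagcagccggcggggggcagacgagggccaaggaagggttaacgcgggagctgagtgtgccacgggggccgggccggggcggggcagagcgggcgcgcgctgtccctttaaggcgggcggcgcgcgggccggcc
Ascl2: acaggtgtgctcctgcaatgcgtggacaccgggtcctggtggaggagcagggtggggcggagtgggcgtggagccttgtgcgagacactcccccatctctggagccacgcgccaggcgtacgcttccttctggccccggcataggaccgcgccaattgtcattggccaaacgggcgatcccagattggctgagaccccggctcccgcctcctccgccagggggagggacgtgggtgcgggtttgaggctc
The letters CTTTGAA and CTTTGAT, the core to which TCF and LEF factors bind, were searched on both strands. They occur in 0 of the 6 windows of these genes (Rnf43 has 2 starts), against 2457 of 32851 windows of all genes (7.48%). The 5 letters CTTTG, or CAAAG for the other strand, would be in capitals. Those occur in 0 of the 6 windows, against 48.58% of all windows. These letters are not in these windows, which says nothing of sites elsewhere in the genes.

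The 10 genes spanned a wide range of abundance. Per gene length, in untreated WT libraries, Lrig1 was highest with a mean of 27.4 FPKM, followed by Sox9 at 18.8, Rnf43 at 12.9, Axin2 at 10.2 and Smoc2 at 9.24 FPKM. Lower levels were those of Ascl2 at 3.95, Lgr5 at 2.55, Znrf3 at 2.18, Nkd1 at 0.287 and Notum at 0.103 FPKM (n = 3). Between neighbours in this order, the library ranges overlapped for Axin2 and Smoc2 (9.81 to 10.8 and 7.73 to 11 FPKM) and for Lgr5 and Znrf3 (2.27 to 2.87 and 1.87 to 2.49 FPKM). The other neighbours did not overlap. The restricted stem cell genes Lgr5 and Ascl2 thus lay far below Lrig1 and Sox9, which progenitors beyond the crypt base also express. Notum, which encodes a secreted enzyme that removes the lipid from Wnt proteins, had 1 to 8 expected counts per library and was too low to test. The remaining 9 genes were tested.

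**Figure D1:**
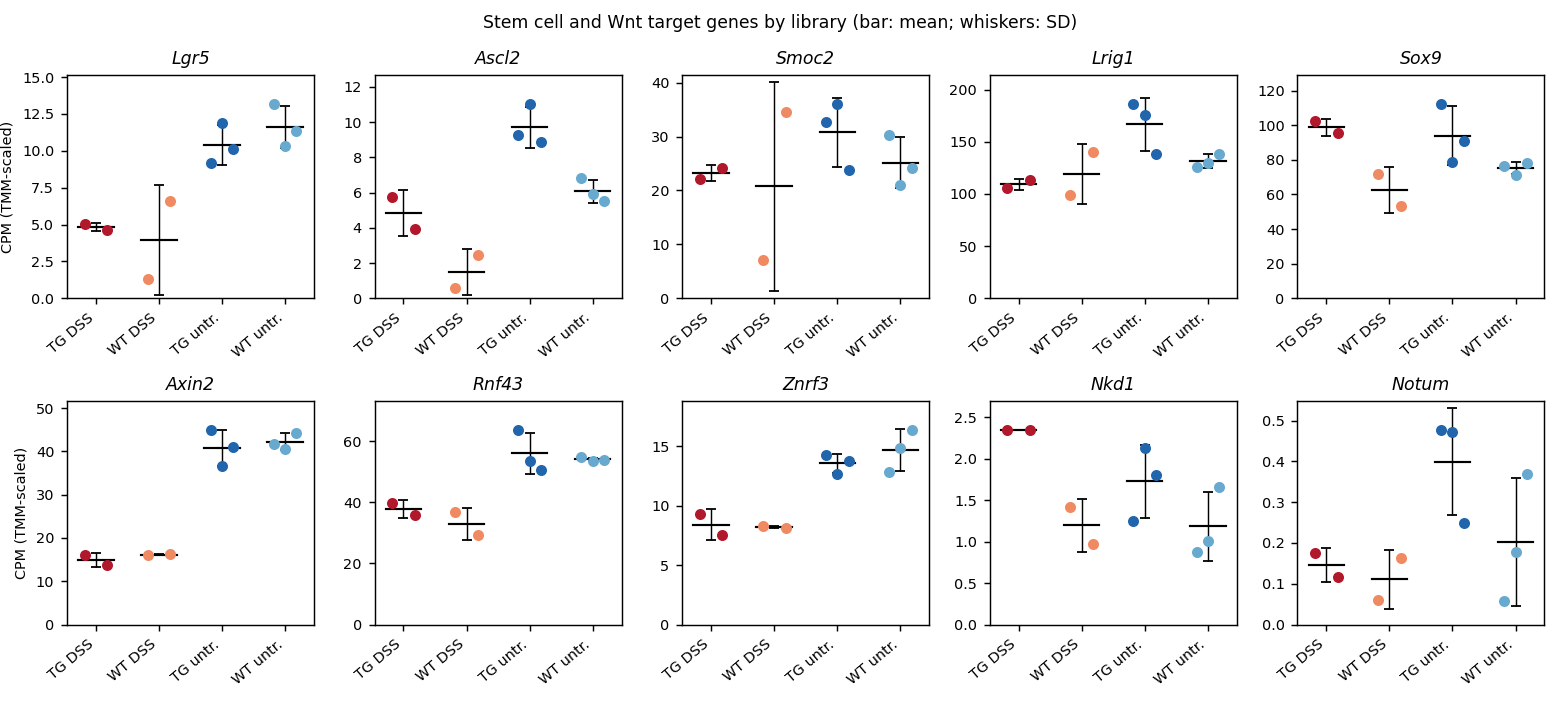
Levels of the 10 genes in CPM (y axes, linear, from 0) for TG DSS, WT DSS, untreated TG and untreated WT libraries; each point is a library, the bar is the group mean and the whiskers are the SD (n = 2 for DSS groups, n = 3 for untreated groups). Within each genotype, Axin2, Rnf43, Znrf3, Lgr5 and Ascl2 are lower in DSS than in untreated libraries without overlap. Lgr5, Ascl2 and Smoc2 are split between the WT DSS libraries.

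With DSS in WT mice, 5 of the 9 tested genes fell: Axin2, Rnf43 and Znrf3 of the feedback loop, and Lgr5 and Ascl2 of the crypt base. By the same test 0 of the 9 rose (0 higher at an unadjusted p under 0.05, 0 higher by DESeq2). Smoc2, Sox9, Lrig1 and Nkd1 did not pass the test. Of all 14072 genes tested, 19.8% passed in either direction and 9.62% were lower (edgeR quasi-likelihood test, Benjamini-Hochberg adjusted p under 0.05). The median log2 fold change was -0.71 over the 9 genes and 0.00 over all tested genes, and under total count scaling 1146 genes were higher and 1700 lower in place of 1434 and 1354. A loss of cells of one type and less RNA per cell cannot be told apart in bulk tissue.

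Axin2, a scaffold of the beta-catenin destruction complex and a widely used Wnt readout, gave the tightest difference. It read 16 and 16.2 CPM in the WT DSS libraries, against 41.8, 40.6 and 44.4 CPM in untreated WT. Both DSS libraries lay far below every untreated one and the groups did not overlap, as in the other 4 genes that fell, where 29.1% of all tested genes were lower without overlap. On the log2 scale the change was -1.39 ± 0.13 (SE), with an adjusted p of 0.000192 by the edgeR quasi-likelihood test. The call held in 19 of 19 alternative fits, with log2 values of -1.45 to -1.24. Axin2 shares 209 exonic bases with the antisense gene Gm11670. For it, Lrig1 and Notum, whether the counting used strand is not given in the sources used here.

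The paired ubiquitin ligase genes moved less. Rnf43 read 36.7 and 29.3 CPM in WT DSS libraries, against 54.7, 53.6 and 53.8 CPM in untreated WT. Znrf3 read 8.27 and 8.16 CPM in WT DSS libraries, against 12.8, 14.8 and 16.4 CPM in untreated WT. In both genes all DSS libraries were below all untreated ones, with a log2 fold change of -0.71 ± 0.14 for Rnf43 (adjusted p = 0.00808) and -0.84 ± 0.17 for Znrf3 (adjusted p = 0.00816, edgeR quasi-likelihood test). Without WT DSS 2 the adjusted p was 0.0832 for Rnf43 and 0.0545 for Znrf3. Nkd1, which binds Dishevelled and restrains Wnt signalling, was scarce and showed no such drop. It read 1.42 and 0.972 CPM in WT DSS libraries, against 0.88, 1.01 and 1.66 CPM in untreated WT. The groups overlapped, with a log2 fold change of 0.01 and a 95% interval of -0.82 to 0.84.

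Lgr5, the R-spondin receptor that marks crypt base stem cells, was split within the WT DSS group. It read 1.30 and 6.59 CPM in WT DSS libraries, against 13.2, 10.4 and 11.3 CPM in untreated WT. Both DSS libraries were below the untreated ones, and WT DSS 1, with 22 expected counts, was 5.07-fold below WT DSS 2. The log2 fold change was -1.55 ± 0.47 (adjusted p = 0.0434, edgeR quasi-likelihood test). Without WT DSS 1 the log2 value was -0.82 (adjusted p = 0.0388) and without WT DSS 2 it was -3.16 (adjusted p = 0.00062). The call held in 10 of 19 alternatives. It ended without WT untreated 1, 2 or 3 (adjusted p of 0.112, 0.0809 and 0.0912), without TG DSS 1 or 2 (0.0663 and 0.0664) and without TG untreated 2 or 3 (0.0591 and 0.0625), while its log2 value stayed between -1.63 and -1.46 in those fits. It also ended in the fit to only the groups compared (0.0848) and in the remaining alternative of the 19, the fit with replicate numbers as a block.

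Ascl2, the transcription factor that works with Wnt signals to maintain stem cell identity, had the largest fitted fall. It read 0.591 and 2.43 CPM in WT DSS libraries, against 6.80, 5.89 and 5.54 CPM in untreated WT. The groups did not overlap, and WT DSS 1 was again the lower of the pair, 4.11-fold below WT DSS 2. A log2 fold change of -1.99 ± 0.43 was fitted (adjusted p = 0.0122, edgeR quasi-likelihood test), and the call held in 19 of 19 alternatives. Without WT DSS 1 the log2 value was -1.32 and without WT DSS 2 it was -3.35.

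Smoc2, a secreted matricellular protein of crypt base cells, lay on both sides of the untreated range. It read 7.03 and 34.5 CPM in WT DSS libraries, against 30.3, 21.1 and 24.2 CPM in untreated WT. WT DSS 1 was the lowest library and WT DSS 2 the highest of these 5. The fitted log2 value was -0.28 with a 95% interval of -1.34 to 0.79 (adjusted p = 0.732, edgeR quasi-likelihood test). Without WT DSS 2 it was -1.84 (adjusted p = 0.00761), and without WT DSS 1 it was 0.46. Lgr5, Ascl2 and Smoc2 thus split the WT DSS pair by 5.07, 4.11 and 4.90 times in the same direction. Axin2 and Znrf3 differed between these libraries by 1.01 times each, and Rnf43 by 1.25 times with WT DSS 1 the higher.

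Other cell type markers and proliferation genes also differed between WT DSS 1 and WT DSS 2. The 16 proliferation genes summed to 955 CPM in WT DSS 1 and 2203 CPM in WT DSS 2, the 12 absorptive colonocyte markers to 14877 and 10081 CPM, and the 9 goblet cell markers to 22035 and 13751 CPM. Large intestine identity genes (8, 1 of them at 0 in every library) summed to 5585 and 3282 CPM. Car1, which is also among the absorptive colonocyte markers, read 5189 and 2886 CPM of these sums. The difference in the large intestine list is thus mostly that of Car1. The part of these differences in the split of Lgr5, Ascl2 and Smoc2 was not tested.

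**Figure D2:**
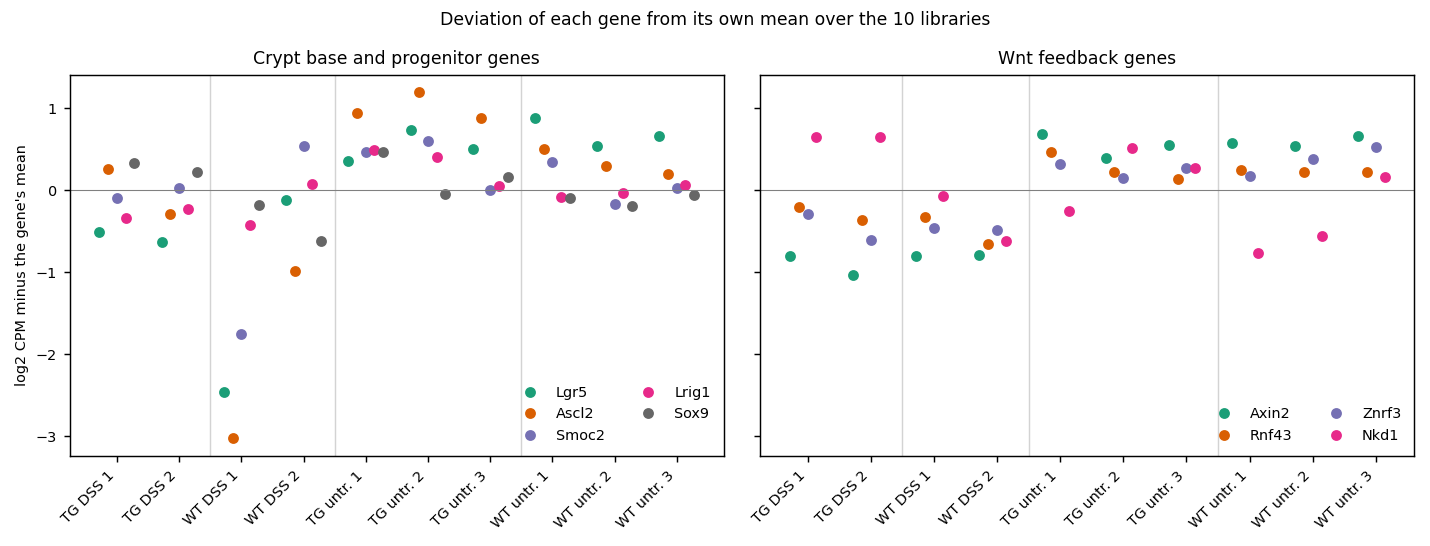
Deviation of log2 CPM of each gene from its own mean over the 10 libraries (y axis, log2 units), by library (x axis); each point is 1 gene in 1 library, with crypt base and progenitor genes at left and Wnt feedback genes at right, and Notum left out as too low. In WT DSS 1, Lgr5, Ascl2 and Smoc2 lie lowest of all libraries, while Axin2, Rnf43 and Znrf3 lie at similar depths in all 4 DSS libraries.

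Lrig1 and Sox9 did not pass in WT. Lrig1, a brake on growth factor receptors that marks stem and progenitor cells, read 99.1 and 140 CPM in WT DSS libraries, against 126, 130 and 139 CPM in untreated WT. Sox9, a transcription factor of crypt base, progenitor and Paneth cells, read 71.8 and 53.0 CPM in WT DSS libraries, against 76.6, 71.4 and 78.3 CPM in untreated WT. In both genes the groups overlapped. The log2 fold change was -0.14 for Lrig1 (95% interval -0.51 to 0.23) and -0.27 for Sox9 (95% interval -0.65 to 0.10).

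In TG mice, DSS was accompanied by falls in 3 of the 9 tested genes, Axin2, Rnf43 and Znrf3, and by 0 rises (0 at an unadjusted p under 0.05, 0 by DESeq2). Of all tested genes 5.48% passed in either direction and 2.15% were lower. The median log2 fold change was -0.61 over the 9 genes and 0.01 over all tested genes. Of the 771 genes that passed, 468 were higher and 303 lower, and under total count scaling 413 were higher of 815. At an unadjusted p under 0.05, which 20.1% of all tested genes reached, 6 of the 9 genes were lower. Of the other 3, Smoc2 was below 0 and Sox9 and Nkd1 were above 0.

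Axin2 read 16 and 13.7 CPM in TG DSS libraries, against 45, 36.6 and 41.0 CPM in untreated TG. The drop was close to that in WT in size, without overlap between groups. The log2 fold change was -1.46 ± 0.13 (adjusted p = 0.000294, edgeR quasi-likelihood test), and the call held in 19 of 19 alternatives. Rnf43 read 39.7 and 35.7 CPM in TG DSS libraries, against 63.6, 53.6 and 50.7 CPM in untreated TG. Znrf3 read 9.32 and 7.49 CPM in TG DSS libraries, against 14.3, 12.7 and 13.8 CPM in untreated TG. Both genes were lower in each DSS library than in any untreated one. The log2 fold change was -0.57 ± 0.14 for Rnf43 (adjusted p = 0.0422) and -0.69 ± 0.17 for Znrf3 (adjusted p = 0.0384, edgeR quasi-likelihood test). These calls held in 10 of 19 alternatives for Rnf43 and 8 of 19 for Znrf3. Both ended without TG DSS 1 (0.149 for Rnf43, 0.0925 for Znrf3), TG DSS 2 (0.324 and 0.325), TG untreated 2 (0.0669 and 0.0656), TG untreated 3 (0.0587 and 0.102) or any 1 of the untreated WT libraries (0.0671 to 0.0754 for Rnf43, 0.0545 to 0.0648 for Znrf3).

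Lgr5, Ascl2 and Lrig1 did not pass the test with DSS in TG. Lgr5 read 5.04 and 4.63 CPM in TG DSS libraries, against 9.18, 11.9 and 10.1 CPM in untreated TG. Ascl2 read 5.74 and 3.92 CPM in TG DSS libraries, against 9.24, 11 and 8.87 CPM in untreated TG. Lrig1 read 105 and 113 CPM in TG DSS libraries, against 187, 176 and 138 CPM in untreated TG. In these 3 genes both DSS libraries were below all untreated ones, as were those of Axin2, Rnf43 and Znrf3, so that 6 of 9 genes were lower without overlap where 16% of all tested genes were. By the edgeR quasi-likelihood test, the log2 fold change was -1.10 ± 0.46 for Lgr5 (adjusted p = 0.214), -1.01 ± 0.38 for Ascl2 (adjusted p = 0.170) and -0.61 ± 0.17 for Lrig1 (adjusted p = 0.0664). The spread of the WT DSS pair enters the shared estimate. Without WT DSS 1 all 3 genes passed, at 0.00958 for Lgr5, 0.0281 for Ascl2 and 0.0346 for Lrig1, and without WT DSS 2 they passed at 0.00897, 0.0283 and 0.0352. Lrig1 passed without TG untreated 3 as well (0.0478).

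Smoc2 read 22.2 and 24.2 CPM in TG DSS libraries, against 32.7, 36.1 and 23.7 CPM in untreated TG. Sox9 read 102 and 95.4 CPM in TG DSS libraries, against 112, 78.7 and 90.9 CPM in untreated TG. Nkd1 read 2.34 CPM in each TG DSS library, against 1.25, 2.13 and 1.80 CPM in untreated TG. Smoc2 and Sox9 overlapped, whereas Nkd1 was higher in both DSS libraries than in every untreated one, as were 19.1% of all tested genes. The log2 fold changes were -0.41 for Smoc2, 0.07 for Sox9 and 0.44 for Nkd1, with a 95% interval of -0.32 to 1.2 for Nkd1. The 2 TG DSS libraries were 1.09 times apart in Lgr5 and in Smoc2 and 1.46 times apart in Ascl2. The WT DSS pair were 5.07, 4.90 and 4.11 times apart in the same order.

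**Figure D3:**
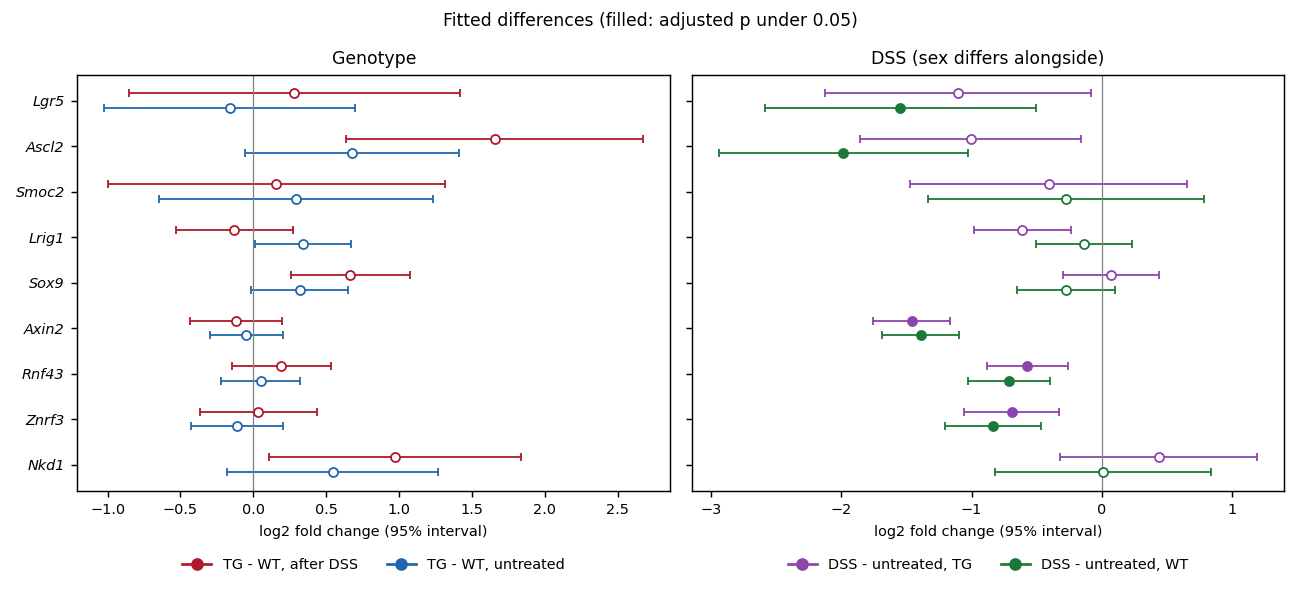
Fitted log2 fold changes (x axis) with 95% intervals for the 9 tested genes (y axis), between TG and WT at left, after DSS and untreated, and between DSS and untreated at right, in TG and in WT; filled points passed at an adjusted p under 0.05. The filled points are Axin2, Rnf43 and Znrf3 in both genotypes and Lgr5 and Ascl2 in WT, all below 0, and no genotype difference is filled.

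Whether DSS acted differently in TG and WT was tested as an interaction, and 0 of the 9 genes passed by the edgeR quasi-likelihood test (0 at an unadjusted p under 0.05, 0 by DESeq2), against 0.846% of all tested genes and 12.1% at an unadjusted p under 0.05. The interval was narrowest for Axin2, with a difference between the DSS effects in TG and WT of -0.07 on the log2 scale (95% interval -0.47 to 0.33). For Ascl2 it was 0.98 (95% interval -0.27 to 2.23) and for Lgr5 0.44 (95% interval -0.98 to 1.87). For Lrig1 it was -0.47 (95% interval -0.99 to 0.05). Lgr5 and Ascl2 passing in WT and not in TG was therefore not shown to be a difference between the genotypes. Without WT DSS 2 the Lgr5 difference was 2.05 (adjusted p = 0.0314) and without WT DSS 1 it was -0.29. The Ascl2 difference was 2.34 without WT DSS 2 and 0.31 without WT DSS 1, and passed in neither fit (adjusted p of 0.0600 and 0.738).

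Between genotypes, in DSS-treated tissue, 0 of the 9 genes passed by edgeR (3 at an unadjusted p under 0.05, 1 by DESeq2). Of all tested genes 0.185% did, and 11.2% at an unadjusted p under 0.05. The 3 were Ascl2, Sox9 and Nkd1, each higher in TG. Ascl2 read 5.74 and 3.92 CPM in TG DSS libraries and 0.591 and 2.43 CPM in WT DSS libraries. Sox9 read 102 and 95.4 CPM in TG DSS libraries and 71.8 and 53.0 CPM in WT DSS libraries. Nkd1 read 2.34 CPM in each TG DSS library and 1.42 and 0.972 CPM in WT DSS libraries. In each of the 3 genes both TG libraries were above both WT libraries, as were 22% of all tested genes. By the edgeR quasi-likelihood test the log2 fold change was 1.66 ± 0.46 for Ascl2 and 0.67 ± 0.18 for Sox9 (adjusted p = 0.211 each), and 0.97 ± 0.39 for Nkd1 (adjusted p = 0.380). Without WT DSS 1 the Ascl2 value was 0.99 and without WT DSS 2 it was 3.02. The adjusted p of Ascl2 was 0.0195 by DESeq2 and 0.0379 without WT DSS 2, and ranged from 0.0195 to 0.552 over the alternatives. For the remaining genes the 95% interval of the log2 difference was -0.43 to 0.20 for Axin2, -0.14 to 0.53 for Rnf43, -0.37 to 0.43 for Znrf3 and -0.85 to 1.42 for Lgr5.

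In untreated tissue, 0 of the 9 genes passed between TG and WT by edgeR (1 at an unadjusted p under 0.05, Lrig1, and 0 by DESeq2). Of all tested genes 3.7% did, and 20.7% at an unadjusted p under 0.05. Ascl2 read 9.24, 11 and 8.87 CPM in untreated TG, against 6.80, 5.89 and 5.54 CPM in untreated WT. Sox9 read 112, 78.7 and 90.9 CPM in untreated TG, against 76.6, 71.4 and 78.3 CPM in untreated WT. In both genes the TG libraries lay above the WT libraries without overlap, as 16.7% of all tested genes did. By the edgeR quasi-likelihood test the log2 fold change was 0.68 ± 0.33 for Ascl2 (adjusted p = 0.278), 0.32 ± 0.15 for Sox9 (adjusted p = 0.263) and 0.34 ± 0.15 for Lrig1 (adjusted p = 0.223). Ascl2 and Sox9 were the 2 of the 9 genes in which every TG library exceeded every WT library both untreated and after DSS, as did 4.83% of all tested genes.

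Of the feedback genes, Axin2, Rnf43 and Znrf3 were close between untreated genotypes. Nkd1 averaged 1.73 ± 0.442 CPM in untreated TG and 1.18 ± 0.418 CPM in untreated WT libraries (SD), with overlap. Its log2 difference was 0.54, with a 95% interval of -0.18 to 1.27. Notum, which was not tested, averaged 0.399 CPM in untreated TG and 0.202 CPM in untreated WT libraries, also with overlap. Axin2 averaged 40.9 ± 4.17 CPM in untreated TG and 42.2 ± 1.93 CPM in untreated WT libraries (SD, n = 3 each), a log2 difference of -0.05 with a 95% interval of -0.30 to 0.20. Rnf43 averaged 56.0 ± 6.79 CPM in untreated TG and 54.0 ± 0.574 CPM in untreated WT libraries, a difference of 0.05 (95% interval -0.22 to 0.32) that changed sign in 4 alternatives. Znrf3 averaged 13.6 ± 0.795 CPM in untreated TG and 14.7 ± 1.76 CPM in untreated WT libraries, a difference of -0.11 (95% interval -0.43 to 0.20). Lgr5 averaged 10.4 ± 1.37 CPM in untreated TG and 11.6 ± 1.44 CPM in untreated WT libraries, and its interval was wider, at -1.02 to 0.70. Paneth cells, which sit beside crypt base stem cells in the small intestine, had 9 markers that summed to 17.5 to 49.9 CPM in DSS libraries, 1257 to 1368 CPM in untreated TG and 128 to 401 CPM in untreated WT libraries. Between 0 and 4 of these 9 were at 0 in a library, and 5 were tested. Of those 5, 3 were called higher in untreated TG than in untreated WT, where 2.26% of all tested genes were. Another 1 lay below 0, at -0.47 on the log2 scale. The 9 goblet cell markers summed to 29557 to 40586 CPM in untreated TG and 9507 to 24358 CPM in untreated WT libraries. Of these 9, 4 were called higher in untreated TG, where 2.26% of all tested genes were. After DSS the 9 summed to 26925 to 33741 CPM in TG and 13751 to 22035 CPM in WT libraries. There 0 of the 9 were called by edgeR (5 higher at an unadjusted p under 0.05, 1 higher by DESeq2). Of all tested genes, 0.178% were called higher after DSS by edgeR, and 11.2% reached an unadjusted p under 0.05 in either direction. The part of Paneth and goblet cell markers in the Ascl2 and Sox9 values was not tested.

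Genes most like Lgr5 over the 10 libraries were sought by the root mean square difference of centred log2 CPM among 10591 genes of at least 5 CPM. The nearest were Dmpk, the myotonic dystrophy protein kinase gene, at 0.307, and Ephb3, an ephrin receptor of crypt cells and a Wnt target, at 0.457. Sorcs2, Prelp and Cps1 followed at 0.467, 0.480 and 0.495. Of the 10 genes themselves, Ascl2 ranked 7 and Smoc2 ranked 9 in likeness to Lgr5, and Axin2 ranked 23. Nearest to Axin2 were Rpl37rt, Nid2, Rplp2-ps1, Rasgef1b and Id3, at 0.182 to 0.219. Nid2 encodes a basement membrane nidogen and Id3 a target of BMP signalling, whereas Rpl37rt and Rplp2-ps1 resemble ribosomal protein genes so closely that their reads may be shared. Znrf3 ranked 58 and Rnf43 ranked 143 in likeness to Axin2, and Lgr5 ranked 1290. The ranks describe these libraries, which share treatment and sex.

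Of 16 other tested Wnt targets of the gut, 2 were higher and 2 lower with DSS in WT, and 1 higher and 1 lower in TG. For this and the lists of crypt base genes, ligands, receptors, inhibitors and transducers that follow, the shares of all tested genes to set beside the counts are 10.2% higher and 9.62% lower in WT, and 3.33% higher and 2.15% lower in TG. Ephb3 read 12.9 and 24.7 CPM in WT DSS libraries against 37.0, 37.3 and 40.8 CPM in untreated WT, and 23.0 and 20.4 CPM in TG DSS libraries against 59.1, 49.1 and 44.1 CPM in untreated TG. All DSS libraries were below all untreated ones. The fall was 1.03 ± 0.24 in WT and 1.23 ± 0.24 in TG on the log2 scale (SE, adjusted p = 0.0160 each, edgeR quasi-likelihood test). The Ephb3 call in WT held in 10 of 10 fits without 1 library, and that in TG ended without TG DSS 1 (0.1003) or TG DSS 2 (0.177). Ccnd1, which encodes cyclin D1, went the other way, at 219 and 230 CPM in WT DSS libraries against 91.2, 77.5 and 76.3 CPM in untreated WT. It rose by 1.46 ± 0.14 in WT (adjusted p = 0.000178, held in 10 of 10) and by 0.74 ± 0.14 in TG (adjusted p = 0.0126, ended without TG DSS 2 or TG untreated 3, up to 0.167), and was 0.68 higher in untreated TG than in untreated WT (adjusted p = 0.0207, held in 7 of 10). Tcf7, a nuclear partner of beta-catenin, fell by 1.45 in WT (adjusted p = 0.0126), but not without WT DSS 1 (0.0591) or WT DSS 2 (0.0681). The leukocyte gene Ptprc read 22.4 and 16.1 CPM in WT DSS libraries, against 66.2, 114 and 62.7 CPM in untreated WT. The leukocyte markers did not move together. Of the 13 tested, 4 were called higher and 3 lower with DSS in WT, with log2 values of -2.24 to 9.52. The part of leukocytes in the Tcf7 fall was not tested. Ephb2, the ephrin receptor paired with Ephb3 in crypt positioning, rose by 0.50 in WT (adjusted p = 0.0339, held in 4 of 10). The list's median with DSS was -0.13 in WT, and in TG it was -0.23.

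**Figure D4:**
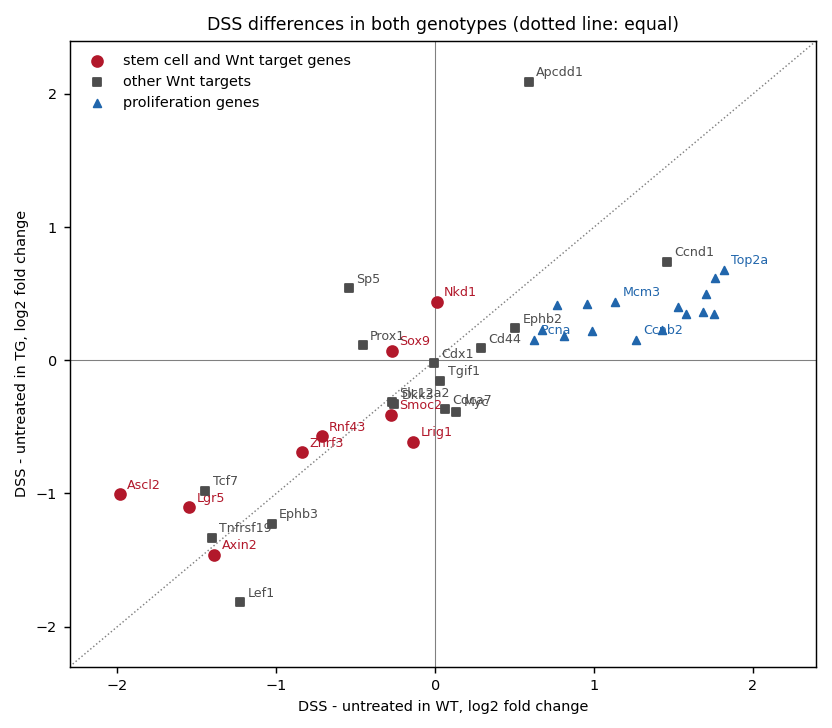
Log2 fold change with DSS in TG (y axis) against that in WT (x axis); each point is a gene, red circles being the 9 tested stem cell and Wnt target genes, grey squares other Wnt targets and blue triangles proliferation genes, of which only some are named. Axin2 lies at -1.46 in TG and -1.39 in WT and Ccnd1 at 0.74 and 1.46, and the proliferation genes lie to the right of 0 in both genotypes and below the dotted line of equal change.

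Among 18 other crypt base and progenitor genes, 2 were higher and 3 lower with DSS in WT, and 0 were higher (0 at an unadjusted p under 0.05, 0 by DESeq2) and 2 lower in TG. Cdk6, a cell cycle kinase, fell by 0.68 in WT (adjusted p = 0.00966, ended without WT DSS 2, 0.0569) and by 0.61 in TG (adjusted p = 0.0323, held in 3 of 10 fits without 1 library). Rgmb, a BMP co-receptor, fell by 0.48 in WT (adjusted p = 0.0302, held in 3 of 10) and by 0.63 in TG (adjusted p = 0.0212, held in 7 of 10). Atoh1, the switch for secretory fate, was the one gene of this list called between genotypes after DSS. It read 73.3 and 72.4 CPM in TG DSS libraries and 38.8 and 37.6 CPM in WT DSS libraries, without overlap. The log2 difference was 0.93 ± 0.14 (adjusted p = 0.0374, edgeR quasi-likelihood test) and lay at 0.91 to 0.94 in the fits without 1 library, where the call held in 3 of 10 (adjusted p up to 0.231). Atoh1 was also higher in untreated TG, by 0.56 ± 0.11 (adjusted p = 0.0245, held in 6 of 10). Phlda1, a growth signal regulator, read 126, 111 and 142 CPM in untreated TG and 51.8, 68.3 and 59.5 CPM in untreated WT, a rise of 1.08 ± 0.15 (adjusted p = 0.00710). That call ended without WT untreated 3 (0.05003). With DSS in WT Phlda1 rose by 0.97 and Clca3b, a chloride channel regulator, by 1.67, and both calls held in 10 of 10. Olfm4, the stem cell marker of the small intestine, was at 0 to 1.82 CPM in the libraries and was not tested.

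The signals upstream were sparsely read. Of 21 genes for Wnt ligands and their secretion 16 were listed and 8 tested, and of 4 R-spondin genes 2 were listed and 1 tested, the R-spondins summing to 0.176 to 0.293 CPM in DSS and 0.179 to 1.31 CPM in untreated libraries. With DSS in WT, 3 of the 8 fell and 0 rose, and in TG 0 of the 8 passed (0 at an unadjusted p under 0.05, 0 by DESeq2). Wnt5a, a ligand made by mesenchyme, fell by 1.63 ± 0.29 in WT (adjusted p = 0.00520, edgeR quasi-likelihood test, held in 10 of 10 fits without 1 library). Porcn, the enzyme that lipidates Wnt proteins, fell by 1.05 ± 0.24 in WT (adjusted p = 0.0146), a call that ended without WT DSS 1 (0.0544), WT DSS 2 (0.0675) or WT untreated 3 (0.0511). Wnt11 was 1.25 ± 0.28 higher in untreated TG than in untreated WT (adjusted p = 0.0390), and this held in 2 of 10. The 12 fibroblast and pericryptal mesenchyme markers summed to 121 to 160 CPM in DSS and 142 to 263 CPM in untreated libraries, and their part in these differences was not tested.

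Of 16 tested Wnt and R-spondin receptor genes, 2 were lower with DSS in each genotype and 0 higher by edgeR (at an unadjusted p under 0.05, 2 higher in WT and 0 in TG; by DESeq2, 1 and 0). Fzd7, the Frizzled receptor tied to intestinal stem cells, read 8.74 and 11.99 CPM in WT DSS libraries, against 18.5, 17.6 and 21.0 CPM in untreated WT. It read 7.79 and 9.37 CPM in TG DSS libraries, against 19.6, 18.7 and 15.9 CPM in untreated TG. All DSS libraries were below all untreated ones. The log2 fold change was -0.87 ± 0.18 in WT (adjusted p = 0.0102, held in 10 of 10 fits without 1 library) and -1.07 ± 0.18 in TG (adjusted p = 0.00887, edgeR quasi-likelihood test), where it ended without TG DSS 1 (0.102) or TG DSS 2 (0.0578). Ror2, a receptor for WNT5A, fell by 0.78 in WT (held in 6 of 10). Fzd9 was 2.55 higher and Fzd6 0.81 lower on the log2 scale in untreated TG than in untreated WT (held in 7 and 5 of 10), and Fzd9 fell by 1.89 with DSS in TG (held in 4 of 10).

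Of 4 tested secreted or receptor-level Wnt inhibitors out of 12, Kremen2, a receptor for Dickkopf proteins, passed in both genotypes. It read 16.6 and 17.0 CPM in WT DSS libraries, against 10.4, 11 and 12.7 CPM in untreated WT. The rise was 0.57 ± 0.17 in WT (adjusted p = 0.0393) and 0.69 ± 0.17 in TG (adjusted p = 0.0400, edgeR quasi-likelihood test). It held in 2 of 10 fits without 1 library in WT and 3 of 10 in TG, with an adjusted p of up to 0.175 and 0.219. Of 18 signal transducers, 2 fell in each genotype. Tle3, a co-repressor of TCF factors, read 35.9 and 34.7 CPM in WT DSS libraries, against 71.9, 67.6 and 67.9 CPM in untreated WT. It fell by 0.97 ± 0.13 in WT (adjusted p = 0.00153, held in 10 of 10) and by 0.80 ± 0.13 in TG (adjusted p = 0.00769), where it ended without TG DSS 1 (0.0582) or TG DSS 2 (0.109). Dvl2, a Dishevelled scaffold, fell by 0.58 in WT (held in 4 of 10), and the co-repressor gene Tle1 fell by 0.68 in TG (held in 7 of 10). The medians of the receptors, inhibitors and transducers lay between -0.26 and -0.05 with DSS in either genotype.

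Proliferation genes ran opposite to Axin2, Lgr5 and Ascl2 in WT. Of 16 tested, 13 rose with DSS in WT (median log2 fold change 1.35) and 0 in TG (median 0.36, 0 at an unadjusted p under 0.05, 0 by DESeq2), where 10.2% of all tested genes rose in WT and 3.33% in TG. Top2a rose by 1.82 ± 0.38, the proliferation antigen gene Mki67 by 1.76 ± 0.48 and the checkpoint kinase gene Bub1 by 1.76 ± 0.42 in WT, with adjusted p of 0.00994, 0.0288 and 0.0172 by the edgeR quasi-likelihood test. Mki67 read 236 and 559 CPM in WT DSS libraries, against 116, 113 and 123 CPM in untreated WT, so that the library with more Lgr5, WT DSS 2, also held more Mki67. Without WT DSS 2 the count in WT was 1 and the median 0.50, and without WT DSS 1 the count was 16 and the median 1.89. Without 1 of the untreated WT libraries the count was 5 or 6. The interaction of genotype and DSS passed in 0 of the 16 genes (7 lower at an unadjusted p under 0.05, 0 by DESeq2), with a median of -1.12.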

How the data were processed

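Poly-A RNA of intestinal tissue was sequenced on the BGISEQ-500 platform, per the labels' protocols. Listed in the submitters' processing notes, without roles, are genome build mm10, RSEM 1.2.12, HISAT2 2.0.4 and Bowtie2 2.2.5. Per the file headers, the authors deposited 1 table per library, with expected counts, gene lengths and FPKM values. A gene is listed in a deposited table only from an FPKM of 0.01 upwards, and a missing gene was set to 0.

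Expected counts were rounded, filtered with filterByExpr (minimum count 10, minimum total 15; 14072 genes kept) and scaled by TMM. The 10 libraries entered 1 edgeR fit (version 4.0.16, R 4.3.3) by quasi-likelihood, with a mean for each group and 6 degrees of freedom left for the spread. The common biological coefficient of variation was 0.171. Tests used Benjamini-Hochberg adjustment over all tested genes and a threshold of 0.05. Small counts limit Nkd1, Notum and, in WT DSS 1, Lgr5 and Ascl2. The 2 libraries of a group with the closest counts still differed by a chi-square of 9.98 per gene. None was thus a copy of another library. Whether 2 libraries came from 1 animal or 1 RNA sample cannot be told from this. Groups and replicate numbers came from the labels.

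Alternatives were DESeq2 1.42.0, scaling by DESeq2 size factors or by total count, a filter of 1 CPM in 5 libraries or none, a replicate block, fits to the compared groups alone, and fits without each library. Log2 FPKM was tested with limma 3.58.1 after adding 1 or 0.1, for genes reaching an FPKM of 1 in 2 libraries. Where an arm is left with 1 library, that library is assumed to vary like the others. The 10 genes and all gene lists were chosen with earlier results of these data known. Named list genes are up to 3 called genes per direction and comparison, taken by size of change among genes averaging 1 CPM or more. Gene coordinates, exon overlaps and promoters are of GRCm38.p6.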

Additional observations from a re-analysis of the deposited data

Results flagged for a closer look

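Wnt8b, a gene for a Wnt ligand, passed the test of a different DSS effect in TG and WT. The difference between the DSS effects in TG and WT was 3.89 on the log2 scale (adjusted p = 0.0209, edgeR quasi-likelihood test). It was the one gene among the 10 genes and the Wnt ligand, receptor, inhibitor and transducer lists whose interaction passed, and its name was chosen after its values were seen, since its mean is under 1 CPM. Wnt8b read 0.586 and 0.586 CPM in TG DSS libraries, 0.295 and 0.216 CPM in WT DSS libraries, 0.417, 0.472 and 0.186 CPM in untreated TG and 2.23, 2.202 and 2.77 CPM in untreated WT. Untreated WT was the high group, with 37 to 45 expected counts per library against 3 to 10 in the other groups. The interaction call held in 5 of 10 fits without 1 library and ended without TG DSS 1, TG DSS 2, WT DSS 2, WT untreated 1 or WT untreated 3, with an adjusted p of up to 0.129. It also ended in the fit with replicate numbers as a block. Wnt8b fell by 3.20 with DSS in WT and was 2.71 lower in untreated TG than in untreated WT, and both calls held in 10 of 10 such fits. No annotated exon of another gene overlaps Wnt8b.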

How the results depend on the processing

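Of 836 recomputed values of the 9 tested genes, 762 kept direction and side of the threshold, 31 no longer passed, 13 newly passed and 30 changed sign. The number of genes called between TG and WT after DSS was 1 by DESeq2 (0 by edgeR) and 0 to 1 without 1 library. With DSS in TG it was 1 with the replicate block (3 without it) and 1 to 6 without 1 library. For the interaction it was 0 to 1 without 1 library. Outside the fits without 1 library, these values changed sign: Rnf43 between untreated TG and WT was -0.031 under total count scaling, -0.034 on log2 FPKM + 1 and -0.037 on log2 FPKM + 0.1; Znrf3 between TG and WT after DSS was -0.043, -0.022 and -0.039 in the same order; Nkd1 with DSS in WT was -0.055 under total count scaling; and the Smoc2 interaction was 0.053 with the replicate block, 0.18 on log2 FPKM + 1 and 0.28 on log2 FPKM + 0.1. The cause was not tested.

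Without 1 library, sign changes gave these ranges. Between untreated TG and WT, Axin2 lay at -0.12 to 0.0023 and Rnf43 at -0.051 to 0.12. Between TG and WT after DSS, Znrf3 lay at -0.13 to 0.18, Lgr5 at -0.45 to 1.89, Smoc2 at -0.57 to 1.72 and Lrig1 at -0.36 to 0.14. With DSS, Sox9 in TG lay at -0.035 to 0.22 and, in WT, Smoc2 lay at -1.84 to 0.46, Nkd1 at -0.28 to 0.32 and Lrig1 at -0.41 to 0.092. The interaction lay at -0.021 to 0.29 for Znrf3, -0.19 to 0.034 for Axin2, -0.29 to 2.05 for Lgr5, -0.86 to 1.43 for Smoc2 and -0.014 to 0.31 for Rnf43.

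Over all tested genes, the calls between untreated TG and WT were 520 by edgeR, 1052 by DESeq2, 166 with the replicate block and 58 to 730 without 1 library, split into 318 higher and 202 lower, or 235 and 382 under total count scaling, 209 and 359 on log2 FPKM + 1 and 177 and 303 on log2 FPKM + 0.1. After DSS, the 26 calls between TG and WT became 255 by DESeq2, 7 under total count scaling or with the replicate block, 8 with only the groups compared, 10 on log2 FPKM + 1, 13 on log2 FPKM + 0.1 and 4 to 145 without 1 library. With DSS in WT the 2788 calls became 1614 with the block and 970 to 4112 without 1 library, and with DSS in TG the 771 became 1203 by DESeq2, 395 with only the groups compared, 356 with the block and 173 to 1677 without 1 library. The 119 interaction calls became 426 by DESeq2, 41 with the block and 24 to 424 without 1 library. On log2 FPKM + 1 and + 0.1 the calls with DSS in WT were 942 higher and 1571 lower, and 828 higher and 1508 lower. The DSS groups hold 2 libraries each, which limits precision. The labels do not say whether replicate numbers mark a shared animal or day. Deviations of same-numbered libraries from their group means correlated at -0.29 to 0.206, and 1 of 6 untreated libraries correlated best with its own number in the other genotype. The 2 libraries of a DSS group deviate by equal and opposite amounts, so correlations that involve them cannot settle this. With the block, the calls with DSS of Lgr5 in WT (-1.70, adjusted p = 0.0690) and of Rnf43 and Znrf3 in TG (-0.60 and -0.65, adjusted p of 0.0691 and 0.136) ended, as did the Wnt8b interaction (3.90, adjusted p = 0.0778). Of 67 calls of single genes in the other lists, Wnt8b included, 27 ended with the block, 16 held in every fit without 1 library and 0 changed sign in any alternative.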

Other observations

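Ly6a and Il1rn, of the epithelial repair genes, rose with DSS in TG, and more of the list passed in WT. Of 13 tested genes of fetal-like and YAP-associated repair, 7 rose and 1 fell in WT and 2 rose and 1 fell in TG. Of all tested genes, 10.2% were higher in WT and 3.33% in TG. At an unadjusted p under 0.05, 7 were higher and 1 lower in each genotype. That p was reached by 33.6% of all tested genes in WT and 20.1% in TG. The list's median log2 fold change was 0.65 in WT and 0.47 in TG. The interaction passed in 0 of the 13 by edgeR, against 0.846% of all tested genes. At an unadjusted p under 0.05 it was higher in 2 and lower in 3. Il1rn rose in WT too, by 0.80 (adjusted p = 0.0161, edgeR quasi-likelihood test). Ly6a, which encodes the surface protein Sca-1, read 1213 and 1111 CPM in WT DSS libraries, against 116, 170 and 109 CPM in untreated WT. It read 827 and 1012 CPM in TG DSS libraries, against 213, 203 and 201 CPM in untreated TG. The groups lay far apart in both genotypes. Ly6a rose by 3.14 ± 0.18 on the log2 scale in WT (adjusted p = 1.57e-05, edgeR quasi-likelihood test) and by 2.16 ± 0.18 in TG (adjusted p = 0.000152), and both calls held in 10 of 10 fits without 1 library. Ereg, which encodes the growth factor epiregulin, rose by 2.07 ± 0.35 in WT (adjusted p = 0.00411, held in 10 of 10), and Il1rn, the interleukin 1 receptor antagonist gene, rose by 1.42 ± 0.19 in TG (adjusted p = 0.00224, held in 10 of 10). Cyr61, a YAP target, fell by 0.92 in WT (adjusted p = 0.0468, held in 3 of 10) and by 1.53 in TG (adjusted p = 0.0151, ended without TG DSS 1 or TG DSS 2, up to 0.159). Areg, a related growth factor gene, was 1.41 ± 0.19 higher in untreated TG than in untreated WT (adjusted p = 0.00710), a call that ended without WT untreated 3 (0.0508).

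Of 9 tested BMP pathway genes, 2 fell with DSS in WT and 3 in TG, against 9.62% of all tested genes lower in WT and 2.15% in TG, and 0 rose by edgeR (0 at an unadjusted p under 0.05 and 0 by DESeq2 in each genotype). Id3, a target of BMP signals and the fifth nearest gene to Axin2, read 96.4 and 63.0 CPM in WT DSS libraries, against 147, 204 and 174 CPM in untreated WT. It read 62.2 and 53.7 CPM in TG DSS libraries, against 217, 147 and 178 CPM in untreated TG. All DSS libraries lay below all untreated ones. Id3 fell by 1.13 ± 0.22 in WT (adjusted p = 0.00811, ended without WT DSS 2, 0.0828) and by 1.64 ± 0.23 in TG (adjusted p = 0.00298, ended without TG DSS 2, 0.0578). Id2, a relative of Id3, fell by 1.30 ± 0.22 in WT (adjusted p = 0.00429, held in 10 of 10) and by 1.24 ± 0.22 in TG (adjusted p = 0.0115, ended without TG DSS 1 or TG DSS 2, up to 0.145).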
